A study of Mus musculus with 10 samples.

Results

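The genes described here make, sense and inactivate prostanoids, the lipid signals that cells form from arachidonic acid. The set held 10 listed genes of 19057 named on the array: the cyclooxygenases Ptgs1 and Ptgs2, the terminal synthases Ptgis, Ptges and Ptgds, the receptors Ptgir, Ptger2, Ptger3 and Ptger4, and the inactivating enzyme Hpgd. Members were found by gene symbol in the array annotation, and each was read from its brightest probe, that with the highest mean over all arrays. Named probes were found for 9 members, 14 probes in all, and Ptgs1 was not analysed here. The set was drawn up after Ptgis had been seen far above mesenchymal stem cells in treated in vivo osteocytes, so that difference is given as a description, without a test. Of the 9 measured members, 8 were detected on at least 1 array, 2 were detected on every array, and Ptgds was detected on none.

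RNA came from 10 samples of C57BL/6J mouse cells, all with adult bone marrow mesenchymal stem cells (MSC) as their stated source, and each was hybridised to 1 Illumina whole-genome bead array. The populations with 1 array each were treated in vivo derived osteocytes, in vivo derived osteocytes, reprogrammed adipocytes, differentiated adipocytes, reprogrammed chondrocytes, differentiated chondrocytes, reprogrammed osteocytes and differentiated osteocytes, and the undifferentiated MSC had 2 arrays. The labels name neither the treatment nor the reprogramming agents, and they do not say whether the MSC arrays came from separate cultures or animals, so their spread may be technical. Levels are given as background-corrected, quantile-normalised log2 intensities, and a gene counted as detected where its detection p-value, a rank against negative control beads, was under 0.01.

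Prostanoid synthesis starts when phospholipases and lipases free arachidonic acid. Cyclooxygenase, constitutive as Ptgs1 and inducible as Ptgs2, turns it into a common intermediate that terminal synthases convert to prostacyclin (Ptgis), prostaglandin E2 (Ptges) or prostaglandin D2 (Ptgds). Prostacyclin acts on the receptor Ptgir and prostaglandin E2 on the EP receptors. Ptgir, Ptger2 and Ptger4 raise cyclic AMP, Ptger3 lowers it, and Hpgd oxidises prostaglandins to inactive products. In bone, osteocytes and osteoblasts release prostaglandin E2 under mechanical load, and it stimulates bone formation.

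The stretch before the transcription start is shown for 3 members: Ptgs2, which separated reprogrammed from differentiated adipocytes and chondrocytes, and Hpgd and Ptger2, which were detected on the same pair of arrays. Sequences are from RefSeq on GRCm38.p6, where 8 of the 9 measured members, all but Ptgis, matched an entry, and each is the 250 bases before the start, 5′ to 3′ on the gene's strand. Capitals mark matches, on either strand, to the TATA box (TATAA), the GC box (GGGCGG), the E-box (CACGTG), the CCAAT box (CCAAT) or the core of the cyclic AMP response element (TGACG), and no matches overlap in these 3. Ptgs2 covers chr1:150099781-150100030 on the plus strand and holds GGGCGG starting 170 bases before the start. Hpgd covers chr8:56294302-56294551 on the plus strand and holds GGGCGG on the other strand, read here as CCGCCC, 50 bases before the start. Ptger2 covers chr14:44987861-44988110 on the plus strand and holds CCAAT 160 bases before the start.
Ptgs2: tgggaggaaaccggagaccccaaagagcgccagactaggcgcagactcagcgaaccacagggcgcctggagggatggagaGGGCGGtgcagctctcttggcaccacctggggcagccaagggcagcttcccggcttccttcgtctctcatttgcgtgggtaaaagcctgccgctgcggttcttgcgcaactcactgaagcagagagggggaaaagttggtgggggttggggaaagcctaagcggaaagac
Hpgd: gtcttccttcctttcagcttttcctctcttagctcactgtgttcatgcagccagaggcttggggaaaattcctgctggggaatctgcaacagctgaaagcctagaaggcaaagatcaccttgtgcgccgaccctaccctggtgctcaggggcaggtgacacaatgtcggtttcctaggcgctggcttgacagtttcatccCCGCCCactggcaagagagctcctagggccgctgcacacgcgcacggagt
Ptger2: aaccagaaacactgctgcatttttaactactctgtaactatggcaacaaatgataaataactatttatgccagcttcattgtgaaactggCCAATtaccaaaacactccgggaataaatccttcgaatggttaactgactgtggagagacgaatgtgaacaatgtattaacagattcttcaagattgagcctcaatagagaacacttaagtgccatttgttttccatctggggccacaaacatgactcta
Among 27025 mouse promoters of the same length, the GC box was found in 32.9%, the CCAAT box in 34.5%, the TATA box in 23.5%, the cyclic AMP core in 17.9% and the E-box in 6.05%. Hpgd and Ptger2 had no match in common in these windows.

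Several features of the arrays touch the results. Between 14896 and 16737 probes were detected per array. The deposited intensities of 8 arrays followed 1 distribution, with a mean of 538. Reprogrammed osteocytes, at a mean of 413, and differentiated osteocytes, at 324, each had another, so scale and lineage cannot be told apart for that pair. Of 9 measured osteoblast and osteocyte markers, 2 were detected in treated in vivo osteocytes and 5 each in in vivo and differentiated osteocytes. The other arrays had 3 to 5. The osteocyte markers Dmp1, Sost and Mepe were detected on no array. Bglap, the bone protein osteocalcin, stood at 6.87 in treated in vivo osteocytes, 12.24 in in vivo osteocytes and 6.95 in differentiated osteocytes. It was not detected elsewhere. Phex was detected on both MSC arrays, on every reprogrammed array and in differentiated adipocytes, but in neither in vivo nor differentiated osteocytes. Adipocyte markers were detected at 7 of 8 in differentiated adipocytes, against 2 to 4 on the other arrays, and chondrocyte markers at 5 of 9 in differentiated chondrocytes, without Acan, against 1 to 3. All 16 measured macrophage markers were detected on the in vivo osteocyte and differentiated chondrocyte arrays and 2 to 5 on each of the others. In such bulk samples, fewer cells of a type and less RNA per cell cannot be told apart.

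**Figure D1:**
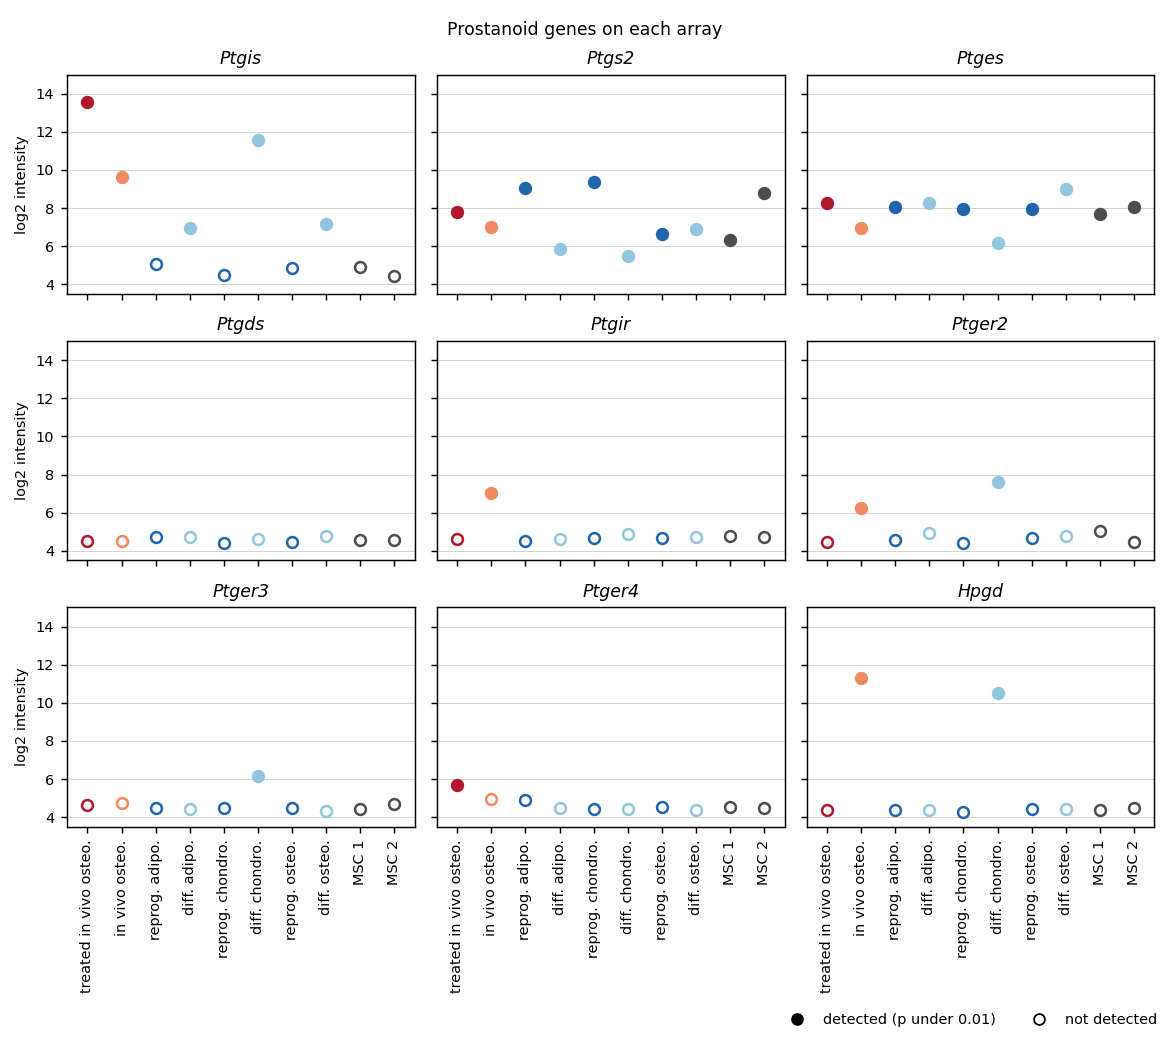
Log2 intensity of the 9 measured prostanoid genes (vertical axes) on each of the 10 arrays (horizontal axes), with filled circles where the gene was detected and open circles where it was not. Ptgs2 and Ptges were detected throughout, Ptgis peaked at 13.56 in treated in vivo osteocytes, and Hpgd was detected only in in vivo osteocytes and differentiated chondrocytes.

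Ptgis, prostacyclin synthase, was the member with the widest range, 9.11 log2 units over the 10 arrays. Its level was 13.56 in treated in vivo osteocytes and 9.64 in in vivo osteocytes, and among the differentiated populations it was 6.98 in adipocytes, 11.56 in chondrocytes and 7.16 in osteocytes. Reprogrammed adipocytes, chondrocytes and osteocytes gave 5.08, 4.51 and 4.86, and MSC 1 and MSC 2 gave 4.91 and 4.45, none of them a detected value. The gene was therefore detected in all 3 differentiated populations and both in vivo ones, and in no reprogrammed or MSC sample. On the deposited linear scale the intensities were 13256 in treated in vivo osteocytes and 940 in in vivo osteocytes, against 104 and 83.8 on the MSC arrays.

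Where a gene was not detected on the lower side, a fold is a lower limit against the lowest level among the detected probes of each such array, averaged for the MSC. By this measure Ptgis was at least 262-fold above MSC in treated in vivo osteocytes, which is the value that chose it. It was at least 17.3-fold above MSC in in vivo osteocytes and at least 65.5-fold in differentiated chondrocytes. In differentiated osteocytes and adipocytes the limits were 3.09-fold and 2.73-fold. The top 3 arrays were 2.00, 1.92 and 2.48 log2 units above the next in order, while differentiated osteocytes and adipocytes were 0.18 apart. The MSC arrays were 0.46 apart, but both were below detection, so that gap does not measure the replicate spread of Ptgis. The 5 levels below detection have no order.

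Treated and untreated in vivo osteocytes both had detected Ptgis, so their difference is a measured one. The treated array, which also gave the value that chose the gene, was 3.92 log2 units higher, 15.1-fold, with no replicate on either side. Over the 8378 genes detected on both arrays the median difference was 0.10, and Ptgis ranked 8 from the highest. The macrophage marker median was 4.57 in treated and 12.77 in untreated in vivo osteocytes, and 13 of the 16, among them Adgre1, Tyrobp, Ptprc and the complement genes C1qa, C1qb and C1qc, were not detected on the treated array. Csf1r, Lyz2 and Cd14 were detected there, at 8.45, 9.02 and 8.79. The arrays with all 16 macrophage markers, differentiated chondrocytes and in vivo osteocytes, were the next highest for Ptgis after the treated array. Vascular cells are a known source of prostacyclin. Of 7 endothelial markers 0 were detected in treated and 1 in untreated in vivo osteocytes, against 0 and 1 in MSC. Of 11 smooth muscle and pericyte markers 7 were detected on each in vivo array, against 3 on each MSC array. Their summed linear levels were closer, at 32059 in treated and 32679 in untreated in vivo osteocytes, against 28347 and 25818 in MSC. Differentiated adipocytes, chondrocytes and osteocytes, which also detected Ptgis, had 0, 1 and 2 endothelial markers. The reprogrammed populations of the same order had 1, 0 and 0. Smooth muscle and pericyte markers numbered 5, 6 and 2 in the differentiated populations, against 4, 3 and 3 in the reprogrammed ones. Myh11, Cnn1, Myocd and Rgs5 were the 4 not detected on either in vivo array. The part of macrophages, endothelial cells or smooth muscle in the Ptgis levels was not tested.

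Ptgs2, the inducible cyclooxygenase, was detected on every array, though only just in differentiated adipocytes and chondrocytes. It stood at 9.05, 9.37 and 6.62 in reprogrammed adipocytes, chondrocytes and osteocytes, at 5.86, 5.51 and 6.89 in the differentiated populations of the same order, and at 6.33 and 8.80 in MSC 1 and MSC 2. Treated in vivo osteocytes gave 7.80 and in vivo osteocytes 7.02. Reprogrammed adipocytes and chondrocytes were thus the highest of all arrays and their differentiated partners the lowest, whereas the osteocyte pair lay close together. The MSC arrays differed by 2.47, more than the 1.53 that bounds 95% of the 8460 genes detected on both, and no step between neighbours in the order of Ptgs2 levels exceeded that gap. No population was at least 2-fold from both MSC arrays for this gene. Against MSC 1 alone it was at least 2-fold higher in treated in vivo osteocytes and in reprogrammed adipocytes and chondrocytes, and against MSC 2 alone at least 2-fold lower in in vivo osteocytes, reprogrammed osteocytes and every differentiated population. A second probe of Ptgs2, annotated to the same transcript, was detected on no array, so every Ptgs2 value rests on 1 probe.

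Within pairs, Ptgs2 was 3.19 log2 units higher in reprogrammed than in differentiated adipocytes, 9.10-fold, and ranked 81 from the highest of 7876 genes detected on both arrays. In chondrocytes the difference was 3.87, 14.6-fold, at rank 42 of 8232. In osteocytes it was -0.27, with the reprogrammed array lower. Differentiated adipocytes and chondrocytes had Ptgs2 at detection p-values of 0.0096 and 0.0085. The lowest detected levels of these arrays were 5.78 and 5.43, so the 9.10-fold and 14.6-fold differences rest on values near the detection limit.

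Ptges, the inducible prostaglandin E synthase that works with Ptgs2, varied less than Ptgis or Ptgs2 and was likewise detected on every array. Its level was 8.27 in treated and 6.95 in untreated in vivo osteocytes. Reprogrammed adipocytes, chondrocytes and osteocytes gave 8.04, 7.98 and 7.95, differentiated ones 8.27, 6.15 and 9.02, and MSC 7.71 and 8.08. The reprogrammed populations lay within 0.09 of one another and between the MSC values, while the differentiated ones spread over 2.87 log2 units. Differentiated chondrocytes were the lowest of all arrays and 3.34-fold below the MSC mean. Treated in vivo osteocytes exceeded the untreated array by 1.32 log2 units, 2.50-fold, at rank 673 of 8378 genes detected on both. A second Ptges probe was detected on all arrays but differentiated chondrocytes. It gave 7.80 in treated and 5.97 in untreated in vivo osteocytes, and 6.72, 6.48 and 7.34 in reprogrammed adipocytes, chondrocytes and osteocytes. In differentiated adipocytes and osteocytes it gave 7.19 and 7.17, and in MSC 6.90 and 6.58. Both probes were higher in treated than in untreated in vivo osteocytes, but the narrow spread of the reprogrammed populations between the MSC values held for the brighter probe only. In the osteocyte pair the probes disagreed in direction, at -1.07 for the brighter and 0.18 for the other.

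Ptgds, the lipocalin-type prostaglandin D synthase, lay between 4.39 and 4.75 on all 10 arrays, below detection throughout. These values give no order and no fold, and they set only an upper limit on its signal.

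Hpgd, the dehydrogenase that starts prostaglandin breakdown, was present on 2 arrays and absent from detection on 8. It stood at 11.29 in in vivo osteocytes and 10.52 in differentiated chondrocytes, and between 4.29 and 4.47 on every other array. The limits against MSC were 54.1-fold in in vivo osteocytes and 31.8-fold in differentiated chondrocytes. In treated in vivo osteocytes Hpgd was at least 58.8-fold lower than in in vivo osteocytes, and in reprogrammed chondrocytes at least 35.9-fold lower than in differentiated ones. In vivo osteocytes and differentiated chondrocytes were the 2 arrays with all 16 macrophage markers, whose linear levels summed to 173765 and 186480, against 604 to 1616 on the other 8 arrays. C1qb, a complement subunit made by macrophages, stood at 14.51 and 14.39 there and at 4.32 to 4.57 elsewhere. Their part in the Hpgd signal was not tested.

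**Figure D2:**
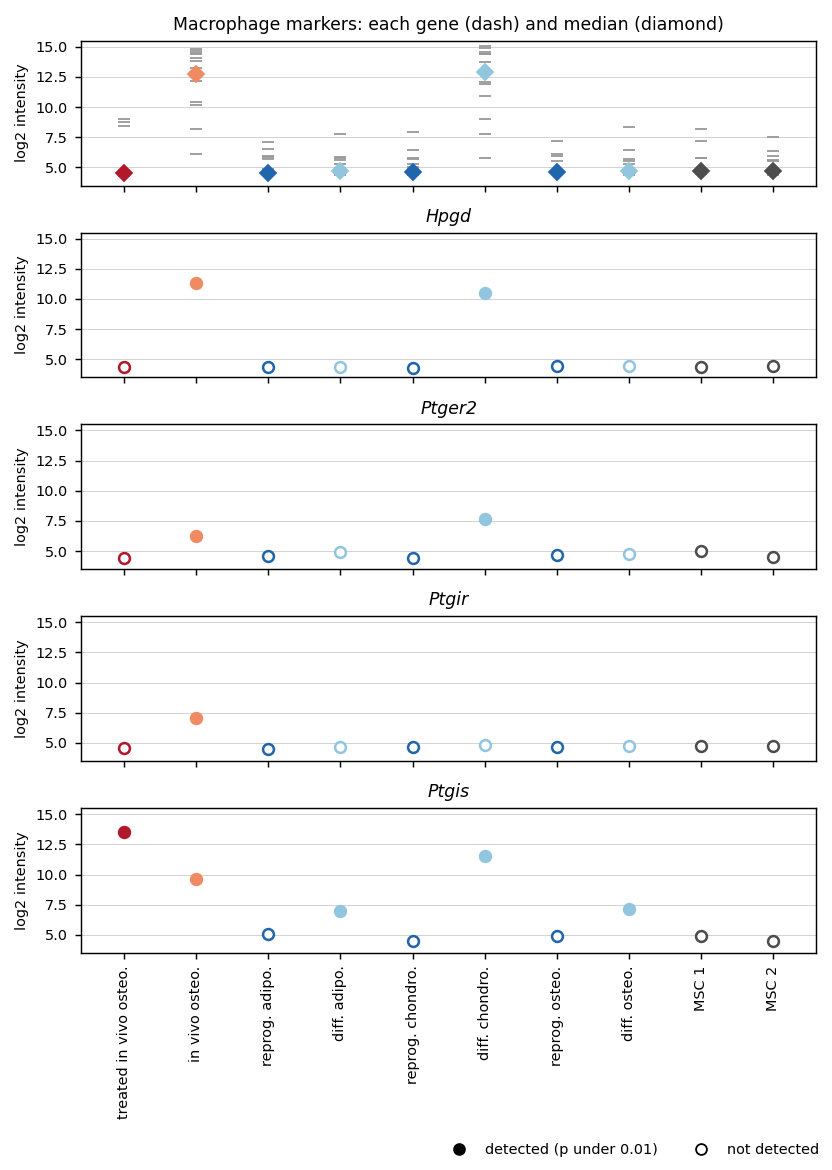
Log2 intensity (vertical axes) on each array (horizontal axis) of the 16 macrophage markers, with each gene as a dash and the median as a diamond, above Hpgd, Ptger2, Ptgir and Ptgis with filled circles where detected. The marker median was 12.77 in in vivo osteocytes and 12.89 in differentiated chondrocytes and below 4.75 on the other arrays. Hpgd was detected on the same 2 arrays. Ptgis was highest at 13.56 in treated in vivo osteocytes, the value that chose it, where the marker median was 4.57. It was next highest in differentiated chondrocytes at 11.56 and in vivo osteocytes at 9.64. The part of macrophages in these signals was not tested.

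Among receptors, Ptger2, the EP2 receptor, was detected on the same arrays as Hpgd, but in the opposite order. It was detected at 6.24 in in vivo osteocytes and 7.63 in differentiated chondrocytes and lay between 4.40 and 5.02 on the other arrays. The limit against MSC was 4.27-fold in differentiated chondrocytes and 1.63-fold in in vivo osteocytes. Reprogrammed chondrocytes were at least 4.82-fold lower than differentiated chondrocytes. A second Ptger2 probe was detected on 1 array, differentiated chondrocytes, at 5.88. All 16 macrophage markers were detected on both arrays that detected Ptger2, and their part in its signal was not tested.

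Ptgir, the prostacyclin receptor, was detected on 1 array, in vivo osteocytes, at 7.04, and stood at 4.62 in treated in vivo osteocytes and 4.50 to 4.86 elsewhere. It was at least 3.10-fold lower in treated than in untreated in vivo osteocytes and at least 2.85-fold higher in in vivo osteocytes than in MSC. On the treated array the synthase of prostacyclin was thus at its peak while the probe of its receptor was below detection. Differentiated chondrocytes, with a macrophage marker median of 12.89 against 12.77 in in vivo osteocytes, had Ptgir at 4.86, below detection. The part of macrophages in the Ptgir signal was not tested.

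Ptger3 and Ptger4 were close to the detection limit. Ptger3, the EP3 receptor, was detected only in differentiated chondrocytes, at 6.16, at least 1.55-fold above MSC, and its second probe on no array. Ptger4, the EP4 receptor, was detected only in treated in vivo osteocytes, at 5.67 with a detection p-value of 0.0043, at least 1.10-fold above MSC. Its second probe was below detection on every array, treated in vivo osteocytes included, so this value rests on 1 probe. Neither gene reached 2-fold as a limit against MSC or within a pair, though with detection set at p under 0.05 Ptger3 passed 2-fold in differentiated chondrocytes over MSC and was lower in reprogrammed chondrocytes.

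Counting the members gives the pattern for each population against both MSC arrays, which every one of these comparisons shares. At least 2-fold higher, with detection on the higher side, were 1 of 9 members in treated in vivo osteocytes (Ptgis, against 3.24% of all 19057 genes), 3 in in vivo osteocytes (Ptgis, Ptgir and Hpgd; 6.13%), 1 in differentiated adipocytes (Ptgis; 4.69%), 3 in differentiated chondrocytes (Ptgis, Ptger2 and Hpgd; 6.46%) and 1 in differentiated osteocytes (Ptgis; 2.14%). The only lower member was Ptges in differentiated chondrocytes, where 5.13% of genes were lower. Lower genes made up 3.41% in treated in vivo osteocytes, 4.03% in in vivo osteocytes, 4.38% in differentiated adipocytes and 1.16% in differentiated osteocytes, and no member was among them. No member passed in either direction in reprogrammed adipocytes, chondrocytes or osteocytes, where only 0.0735%, 0.121% and 0.519% of genes were higher and 0.388%, 0.325% and 0.236% lower. Without background correction Ptgis in differentiated adipocytes and osteocytes, Ptgir, Ptger2 and Ptges no longer passed, while Ptgis and Hpgd did in in vivo osteocytes and differentiated chondrocytes. Nothing is read from the count in treated in vivo osteocytes, since Ptgis was chosen from it.

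Between treated and untreated in vivo osteocytes, 2 of 9 members were at least 2-fold higher (Ptgis and Ptges, against 7.27% of genes) and 2 lower (Ptgir and Hpgd; 8.72%). In the adipocyte pair Ptgs2 was higher in reprogrammed cells (7.57% of genes) and Ptgis lower (8.2%). In the chondrocyte pair Ptgs2 and Ptges were higher (9.13%) and Ptgis, Ptger2 and Hpgd lower (9.93%). In the osteocyte pair none was higher (3.95%) and Ptgis and Ptges were lower (5.64%). Ptgis was thus lower on the reprogrammed array in all 3 lineages and higher on the treated in vivo array. Ptges changed direction between pairs, of which the osteocyte pair was not borne out by its second probe. Without background correction the members past 2-fold were Ptgis and Hpgd in the in vivo pair, Ptgs2 in the adipocyte pair, Ptgs2, Ptgis and Hpgd in the chondrocyte pair and none in the osteocyte pair. Differences of 1 array from 1 array carry no test.

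**Figure D3:**
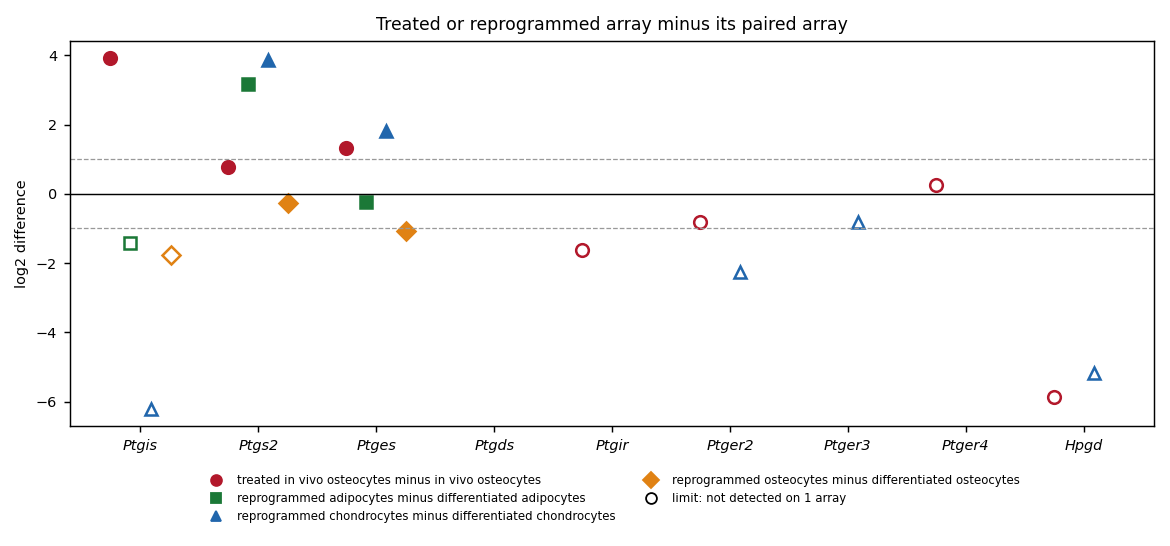
Log2 difference (vertical axis) of each prostanoid gene (horizontal axis) between treated and untreated in vivo osteocytes and between reprogrammed and differentiated cells of 3 lineages, with open symbols for limits where 1 array lacked detection and dashed lines at 2-fold. Ptgis is at 3.92 in the in vivo pair and at -1.42, -6.21 and -1.77 for adipocytes, chondrocytes and osteocytes; genes detected on neither array of a pair have no symbol.

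Replication across lineages allowed a test of the change common to adipocytes, chondrocytes and osteocytes. The question was how the reprogrammed populations differed from the differentiated ones, with lineage as a block and limma's moderated test over 17728 probes detected on at least 2 of the 6 arrays. Only Ptgis, Ptgs2 and Ptges entered, and Ptgis did so through the differentiated arrays alone, since no reprogrammed array detected it. None passed an adjusted p under 0.05, which 49 probes, 0.276%, did, and 2 of the 3 had an unadjusted p under 0.05, as did 19.7% of probes. Ptgis averaged 4.82 ± 0.29 in reprogrammed and 8.57 ± 2.60 in differentiated populations (SD, n = 3 each), a fitted difference of -3.75 ± 0.99 (SE; limma adjusted p = 0.138). The filter admitted the gene by its high group and the reprogrammed values are below detection, so this value is no measured fold and its p carries no weight. Ptgs2 averaged 8.35 ± 1.51 in reprogrammed and 6.08 ± 0.72 in differentiated populations (SD, n = 3 each), a difference of 2.26 ± 0.79 (SE; limma adjusted p = 0.205), higher in 2 of 3 pairs. Ptges differed by 0.17 ± 0.59 (SE; limma adjusted p = 0.897), higher in 1 of 3 pairs.

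The calls depended on which lineages were in the fit, and leaving 1 out left 1 residual degree of freedom. For Ptgs2 the difference was 3.53 ± 0.51 (SE) without the osteocyte arrays, at a limma adjusted p of 0.035, in a fit where 330 probes, 1.99%, passed. It was 1.80 without the adipocyte arrays and 1.46 without the chondrocyte arrays, at limma adjusted p of 0.374 and 0.383. With all lineages but no background correction the Ptgs2 difference was 1.31 ± 0.51 (SE; limma adjusted p = 0.285). Ptgis, with the limit given above, differed by -4.68 ± 0.92 (SE) without the adipocyte arrays, at a limma adjusted p of 0.047 beside 211 probes, 1.24%, that passed. Without the chondrocyte arrays it differed by -2.10 and without the osteocyte arrays by -4.48, at limma adjusted p of 0.097 and 0.123. With the in vivo pair added it differed by -1.83, at a limma adjusted p of 0.528. That pair holds the treated value that chose the gene. None of these p-values of Ptgis carries weight.

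**Figure D4:**
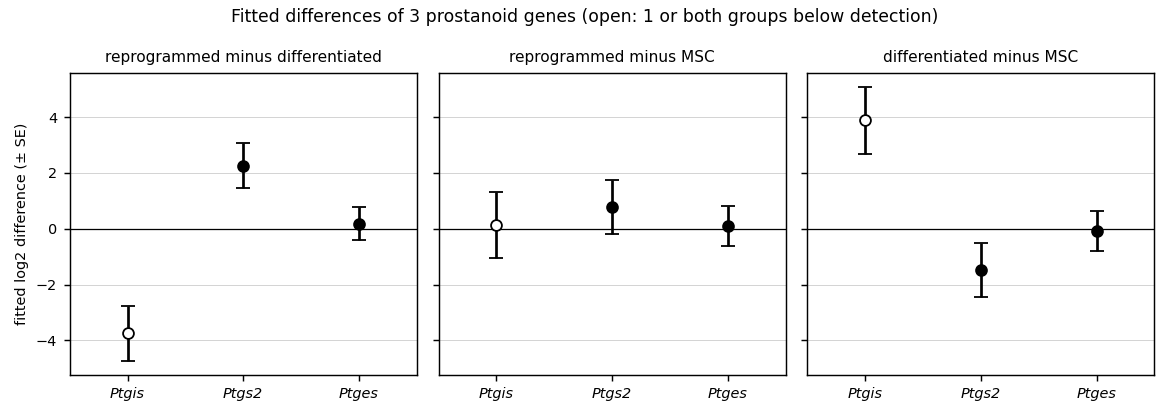
Fitted log2 differences (vertical axis, points) with their standard errors (bars) for Ptgis, Ptgs2 and Ptges between reprogrammed and differentiated populations (left), reprogrammed populations and MSC (middle) and differentiated populations and MSC (right), with open points where a group had the gene detected on none of its arrays. Ptgs2 is at 2.26 between reprogrammed and differentiated populations and Ptges lies near 0 throughout; all Ptgis points are open, and none of the 9 differences passed an adjusted p under 0.05.

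Against MSC, the same 3 members were tested in 1 fit of 8 arrays and 18131 probes, and these comparisons share the MSC arrays with each other and with the difference that chose Ptgis. For reprogrammed populations minus MSC no member and 0% of all probes passed under limma, and unadjusted p under 0.05 was reached by 0.397% of probes and no member. Ptgs2 differed by 0.78 ± 0.96 and Ptges by 0.10 ± 0.72 (SE), both with a limma adjusted p of 1.00. Ptgis was below detection on all 5 of these arrays, so its fitted 0.13 compares background with background. The standard errors of Ptgs2 and Ptges leave room for differences of more than 2-fold in either direction.

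For differentiated populations minus MSC no member passed, and 3 probes, 0.0165%, did. Ptgis alone of the 3 members had an unadjusted p under 0.05, as did 8.67% of probes. It averaged 8.57 ± 2.60 in differentiated populations (SD, n = 3) and 4.68 ± 0.33 in MSC (SD, n = 2), a fitted difference of 3.88 ± 1.19 (SE; limma adjusted p = 0.380). This is no measured fold and no independent test, since both MSC values are below detection and also entered the difference that chose the gene. Ptgs2 differed by -1.48 ± 0.96 (SE; limma adjusted p = 0.718) and Ptges by -0.08 ± 0.72 (SE; limma adjusted p = 0.986).

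Other genes of prostanoid metabolism were read from 5 lists of the pathway and 1 list of genes that respond to cyclic AMP. Of their members, 2 of arachidonate supply, 6 of the other synthases, 4 of transport and inactivation, 3 of the leukotriene branch, 6 of the cyclic AMP list and none of the other receptors entered the fits, and none passed in any of the 3. Medians of reprogrammed minus differentiated were -1.41 for arachidonate supply, -0.83 for the synthases, -0.58 for transport, -2.35 for the leukotriene branch and -0.72 for the cyclic AMP list, against 0.10 over all probes tested. They cover only the genes that passed the filter, some through the differentiated arrays alone as Mgll did, and that of arachidonate supply is the midpoint of Mgll at -3.15 and Pla2g6 at 0.34, so they describe those genes and not a shift of the list. By population, no gene of any of the 6 lists was at least 2-fold from both MSC arrays in reprogrammed adipocytes, chondrocytes or osteocytes. Over all genes, 0.0735%, 0.121% and 0.519% were higher there and 0.388%, 0.325% and 0.236% lower. The other synthases had 5 of 8 higher in in vivo osteocytes (6.13% of all genes) and 3 each in differentiated adipocytes (4.69%) and differentiated chondrocytes (6.46%). They had 1 (Cbr3) higher in treated in vivo osteocytes (3.24%) and 0 in differentiated osteocytes (2.14%). The leukotriene branch had 3 of 6 higher in in vivo osteocytes and 3 in differentiated chondrocytes, 1 (Ltc4s) in differentiated adipocytes and 0 in treated in vivo and differentiated osteocytes (3.24% and 2.14% of all genes). Of 5 other receptors measured only Tbxa2r, the thromboxane receptor, was detected, at 6.19 in treated in vivo osteocytes and 5.91 in differentiated osteocytes. The genes named next lay at least 4-fold from both MSC arrays on at least 1 array.

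Several of these enzymes peaked on the arrays that held Hpgd. Hpgds, the haematopoietic prostaglandin D synthase, was detected at 10.07 in in vivo osteocytes and 9.98 in differentiated chondrocytes, at least 23.2-fold and 21.9-fold above MSC, and was below detection on the other 8 arrays. Of the prostaglandin D synthases, Hpgds was thus detected on 2 arrays and Ptgds on none. Tbxas1, thromboxane synthase, stood at 9.53 and 9.19 on the same arrays, at least 12.6-fold above MSC on each, and Prxl2b, a prostamide and prostaglandin F synthase, at 8.81 and 8.25. Alox5ap, the protein that presents arachidonic acid to 5-lipoxygenase, reached 12.65 in in vivo osteocytes and 13.84 in differentiated chondrocytes. Alox5 itself, the first enzyme of leukotriene synthesis, was at 7.63 and 6.52 on these arrays and below detection on the rest. In treated in vivo osteocytes Hpgds, Tbxas1, Alox5 and Alox5ap were below detection, while Prxl2b was detected there at 5.82. Tbxas1 was also detected in reprogrammed chondrocytes, at 5.36, and in differentiated osteocytes, at 5.97. Alox5ap was also detected in reprogrammed and differentiated osteocytes, at 5.87 and 6.31, and on 1 MSC array. Hpgds, Tbxas1, Alox5 and Alox5ap are known macrophage products. All 16 macrophage markers were detected on the 2 arrays where these genes peaked, and 2 to 5 on each of the others. The part of macrophages in these signals was not tested.

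Mgll, the lipase that can free arachidonic acid from an endocannabinoid, was detected, as Ptgis was, on both in vivo arrays and on no reprogrammed or MSC array. It stood at 7.15 in treated and 8.08 in untreated in vivo osteocytes, 8.30 in differentiated adipocytes and 11.28 in differentiated chondrocytes, and in differentiated osteocytes, where Ptgis was detected, Mgll was not. Akr1c18, a hydroxysteroid dehydrogenase that can also act on prostaglandins, reached 10.97 in in vivo osteocytes, but its MSC values of 8.24 and 4.77 lay on both sides of detection. Differentiated adipocytes had the highest levels of Cbr1 (12.02) and Cbr3 (13.10), carbonyl reductases that act on prostaglandins, and of Abcc4 (11.63), which exports them. These were 7.72-fold, 7.98-fold and 7.89-fold above the MSC mean. Slco2a1, the transporter that takes prostaglandins up before Hpgd oxidises them, was below detection in differentiated adipocytes alone, at least 8.93-fold below MSC. It averaged 9.30 ± 0.50 in reprogrammed and 6.91 ± 1.34 in differentiated populations (SD, n = 3 each), a difference of 2.39 ± 0.63 (SE; limma adjusted p = 0.14) in the same direction in 3 of 3 pairs.

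Cyclic AMP is the messenger of Ptgir, Ptger2 and Ptger4. Pde4b, a phosphodiesterase that degrades it, peaked where Ptgis did, at 9.10 in treated in vivo osteocytes, against 7.00 in in vivo osteocytes and values below detection in MSC, at least 11.9-fold above MSC. Per1, a clock gene that cyclic AMP and glucocorticoids induce, averaged 7.15 ± 0.28 in reprogrammed and 9.32 ± 0.74 in differentiated populations (SD, n = 3 each), a difference of -2.17 ± 0.37 (SE; limma adjusted p = 0.07), lower in 3 of 3 pairs. Of the 9 measured genes of this list, only Pde4b and Per1 were at least 2-fold from both MSC arrays, and both were higher. Both passed in treated in vivo osteocytes (3.24% of all genes were higher) and Pde4b alone in in vivo osteocytes (6.13%). Per1 alone passed in differentiated adipocytes (4.69%), chondrocytes (6.46%) and osteocytes (2.14%). Lower genes made up 0.236% to 5.13% of all genes per population.

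**Figure D5:**
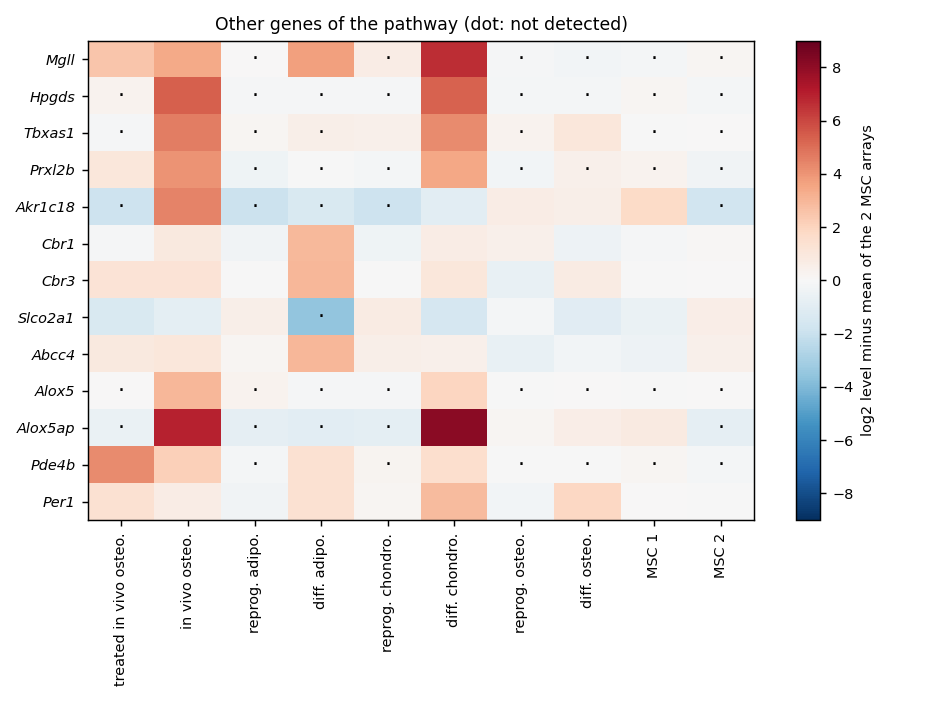
Difference in log2 level from the mean of the 2 MSC arrays (colour scale) for the 13 other pathway genes at least 4-fold from both MSC arrays (rows) on each array (columns), with a dot where the gene was not detected. The columns of in vivo osteocytes and differentiated chondrocytes carry Hpgds, Tbxas1, Prxl2b and Alox5ap, and Pde4b is highest in treated in vivo osteocytes.

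The genes whose levels ran most like Ptgis over the 10 arrays, among 10627 genes detected on at least 2, were Slc9a3r1 (Pearson r = 0.968), Il16 (0.961), Sp3 (0.959), Lrrc75b (0.955) and Fam189b (0.954), and each was highest in treated in vivo osteocytes. For Ptgs2 they were Prkar2a (0.983), Rangap1 (0.973), Ubap2 (0.964), Rab27b (0.963) and Lsm8 (0.962), highest in reprogrammed chondrocytes except Rangap1, which was highest in reprogrammed adipocytes. These values describe 10 arrays that share their normalisation and carry no test. For Ptgis, 5 of the 10 values are below detection and the highest is the one that chose the gene, so r rests on few arrays.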

How the data were processed

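Expression was measured in 10 samples, 1 array each, grouped by their labels, and all were used. Per the file headers, the scanner table the authors deposited lists 45281 probes with a linear bead intensity and a detection p-value on every array. Neither labels nor headers used here state how the authors scaled it. From the values, 8 arrays had been brought to 1 distribution and the osteocyte pair had not. A deposited value table holds linear intensity for 8 arrays and log2 values for that pair. For the 8 arrays its lines did not follow their probe IDs (Spearman rho -0.00745 to -0.00155), so it served only as an alternative, after each of 45281 lines had been matched to a scanner probe by rank on the 8 arrays.

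Background correction (normexp, offset 16), quantile normalisation and log2 used neqc of limma 3.58.1 in R 4.3.3; tables used Python 3.11.15. A probe was detected at p under 0.01. The array annotation named 1 gene for 34885 probes, several for 18 and none for 10378. Fits used lmFit and eBayes on probes that at least 2 of the fitted arrays detected, with Benjamini-Hochberg adjustment over all probes and calls under 0.05. Reprogrammed minus differentiated used 6 arrays, blocked by lineage, which leaves 2 residual degrees of freedom; both tests against MSC came from 1 fit of 8 arrays with 5. Single arrays were compared by a fold of 2 without a test, with undetected arrays set to their lowest detected level. The fits were also run on simulated data with the same spread for every probe and no lineage effect. That setting is simpler than these data, so it does not show how reliable the calls are here. Precision is limited by how few arrays there are.

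Members, gene lists and alternatives were chosen with earlier results of these data known. All members were named, and other pathway genes where they passed a test or lay 4-fold from both MSC arrays in a population. For Ptgis and Ptgs2 the 5 genes with the highest Pearson r over the arrays were added. Alternatives were no background correction, 75th percentile scaling, the value table, other detection and fold limits, no filter, an intensity trend, other blocks, and leaving out each lineage and each MSC array.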

Additional observations from a re-analysis of the deposited data

Results flagged for a closer look

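Ptges went both ways between lineages. The difference of reprogrammed minus differentiated was 1.83 in chondrocytes and -1.07 in osteocytes on the log2 scale. Each value sets 1 array against 1 array, and the difference between the lineages was not tested. The second Ptges probe gave a limit of 1.05 in chondrocytes but 0.18 in osteocytes, so the lower value rests on 1 of 2 probes.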

How the results depend on the processing

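Only the MSC arrays carry a replicate, so single populations have no test, and bound values depend on the detection limit of each array. Without background correction, summed over the 8 populations, 5 member values instead of 10 reached 2-fold against both MSC arrays, and between treated and untreated in vivo osteocytes 2 instead of 4 did. Those that were left were Ptgis and Hpgd. A limit of 4-fold gave 6 and 2, and MSC 2 alone as the comparison gave 16. Detection at p under 0.05 gave 12 and 5, and the 75th percentile scaling and the value table left 10 and 4. In reprogrammed minus differentiated, 1 member passed without the adipocyte arrays (Ptgis) and 1 without the osteocyte arrays (Ptgs2), each with 1 residual degree of freedom. No reprogrammed array detected Ptgis, so its pass carries no weight. The probes that passed numbered 49 as reported, 0 without background correction, 31 in the value table and 0 without the filter. They numbered 168 with an intensity trend, 211 without the adipocyte arrays and 330 without the osteocyte arrays. Without the lineage block 344 passed, with the in vivo pair added 0 and in the fit of 8 arrays 316. For differentiated minus MSC the probes that passed numbered 3 as reported, 1 without the filter, 11 without the adipocyte arrays, 0 without the chondrocyte arrays, 1 without the osteocyte arrays and 0 to 0 when each MSC array was left out. Some fitted differences changed sign without a call. Ptges went to -0.00314 without background correction and -0.65 without the chondrocyte arrays in reprogrammed minus differentiated, and to 0.0636 and 0.75 without background correction and without the chondrocyte arrays in differentiated minus MSC. Leaving out each MSC array in turn gave -0.27 to 0.11 for Ptges in differentiated minus MSC and -0.0914 to 0.28 in reprogrammed minus MSC. Ptgs2 in reprogrammed minus MSC went from 0.78 to -0.45 without MSC 1 and to 2.01 without MSC 2. The MSC arrays differed by 2.47 for this gene, so its value depends on which of them is kept. For Ptgis the range of -0.10 to 0.37 in reprogrammed minus MSC compares background with background. The cause of these changes was not tested. The comparison of reprogrammed with differentiated populations was paired by lineage. No pairing by replicate number was possible, since only the MSC arrays carry one.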
